A study of Danio rerio with 4 samples.

Results

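The collagen genes were examined in RNA-seq read counts of adult zebrafish hearts. They were taken as every gene ID whose symbol, without regard to case, is col followed by a chain number, the letter a and a second number, with or without a copy letter. This rule, which uses no measured value, found 57 of 32520 gene IDs, under 52 distinct symbols. The symbols are printed as the gene name table gives them, in capitals for many zebrafish genes, and the ID is added where several IDs carry the same symbol. By chain number, 15 genes were fibrillar collagens, 12 belonged to the fibril-associated FACIT class, 5 were beaded (type VI) and 6 were basement membrane (type IV) collagens. The network-forming types VIII and X had 5 genes, the multiplexins XV and XVIII 3, the transmembrane types XVII and XXIII 4, the anchoring type VII 3 and type XXVIII 4.

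Collagen chains wind around each other in a helix built on a repeated glycine, and the class sets what the helix forms. Types I, V and XI assemble into banded fibrils, with types V and XI known to start fibrils and limit their width, and FACIT collagens sit on the surface of such fibrils. Type VI forms beaded microfibrils around cells, and type IV forms the sheet of the basement membrane under endothelium and around muscle cells. In the zebrafish heart, which regrows muscle after loss of ventricular tissue, collagen is deposited early after injury and is later removed.

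The study crossed genotype with injury in the Ekkwill strain, with 1 library in each of 4 groups. These were LEN[delta]/[delta] hearts 3 days post-amputation (3 dpa), LEN+/+ (wild-type) hearts at 3 dpa, uninjured LEN[delta]/[delta] hearts and uninjured LEN+/+ hearts. LEN is an injury-responsive enhancer near the leptin gene lepb, and the mutant fish are homozygous for its deletion. The labels give neither the number of hearts in a library nor the age beyond adult, and no value below has a replicate. The difference between any 2 libraries therefore cannot be told apart from variation between hearts.

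Total counts per library ranged from 31618442 to 35026983. The leptin gene lepb, the target of the enhancer, had 2 counts in the mutant and 78 in the wild-type library at 3 dpa, against 2 counts in each uninjured library. Cardiomyocyte genes were abundant in every library, with 32371 and 32186 CPM in sum over 12 IDs in mutant and wild type at 3 dpa, against 69383 and 63903 CPM in uninjured mutant and wild-type hearts. The wild-type uninjured library stood apart. In it 130 genes lay at least 2 log2 units above the other 3 libraries while those lay within 1 unit of each other, against 7 in the mutant 3 dpa, 2 in the wild-type 3 dpa and 3 in the mutant uninjured library. The 8 hepatocyte markers stood at 1208 CPM in sum there, against 41.3 CPM in the mutant uninjured library; at 3 dpa they had 420 and 389 CPM in mutant and wild type, nearly all of it from tfa. The liver gene fabp10a had 7 and 0 counts in mutant and wild type at 3 dpa, against 12 and 3748 counts in uninjured mutant and wild-type hearts.

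Levels are given as CPM, read counts brought to a common library size with the TMM factors of edgeR, and ratios as log2 ratios with a prior count of 2. The 95% interval beside a ratio is the exact counting interval of the 2 read numbers and covers counting error only. With 1 library per group there is no test across replicates, and "tested" stands for genes that were held against a threshold because they reached 1 CPM in at least 1 library. A gene passed the threshold when the log2 ratio was at least 1 in size and the counting interval excluded 0, and "rose" and "fell" are used only for such genes. Of the 57 collagen genes 41 were tested. The other 16 had at most 35 counts in any library. Some genes reached 1 CPM only in libraries where they were high, so their calls were not independent of the filter. Among the collagens these include col21a1 and col28a1b (3 dpa) and col4a3 (mutant at 3 dpa). They also include col5a2b and COL11A2 (wild-type uninjured) and col7a1l ENSDARG00000069692 (mutant). No transcript lengths were used, so a level is compared between libraries and never between genes.

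Collagen transcripts took a much larger share of the reads at 3 dpa. They held 1.80% of all counts in the mutant (Wilson 95% interval, 1.79 to 1.80%) and 2.03% in wild type (2.02 to 2.03%) at 3 dpa, against 0.296% (0.294 to 0.298%) in mutant and 0.333% (0.331 to 0.335%) in wild-type uninjured hearts. On the scaled level the sum was 4.87-fold higher at 3 dpa than in uninjured hearts in the mutant, and 5.06-fold higher in wild type. The 3 type I genes alone supplied 54.2% of the collagen counts in the mutant and 59.2% in wild type at 3 dpa, against 36.0% and 43.8% in uninjured mutant and wild-type hearts. The fibrillar share of the collagen counts was larger at 3 dpa in both genotypes. Basement membrane collagen took 3.06% of the collagen counts in the mutant and 1.85% in wild type at 3 dpa, against 11.9% and 7.04% in uninjured mutant and wild-type hearts.

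**Figure D1:**
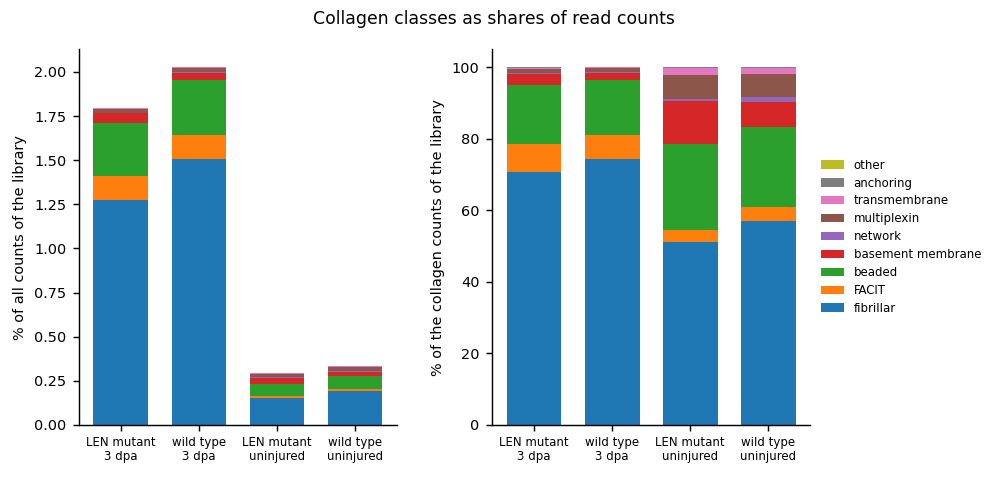
Stacked bars give the share of read counts held by each collagen class in each of the 4 libraries, as % of all counts (left) and as % of the collagen counts (right). Both 3 dpa bars on the left reach 1.80 and 2.03%, against 0.296 and 0.333% for the uninjured bars, and the fibrillar part is larger at 3 dpa on the right.

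In the mutant, 21 of the 57 collagen genes rose at 3 dpa and 0 fell, 20 were tested without passing, and 16 were not tested. Over all 16509 tested genes, 14.7% rose and 5.62% fell in that comparison. In wild type 20 collagen genes rose, 4 fell (col5a2b, COL11A2, COL10A1 ENSDARG00000054753 and col7a1l ENSDARG00000069692), and 17 did not pass, against 13.2% and 6.76% of all tested genes. Of the 4 that fell, col5a2b and COL11A2 reached the filter only in the wild-type uninjured library. The 20 that rose in wild type were all among the 21 of the mutant, while 10.9% of all tested genes rose in both genotypes. The median log2 ratio over the 57 genes was 0.66 in the mutant and 0.51 in wild type. With the genes that had a library at 0 set at their bound against 3 counts, it was 0.64 and 0.37. Over all genes with a count, the median was 0.02 in the mutant and 0.00 in wild type. In whole hearts, a change in the number of cells of a type and a change in RNA per cell cannot be told apart. The 10 epicardial and fibroblast markers were higher in sum at 3 dpa, at 1607 CPM in the mutant and 1790 CPM in wild type, against 545 and 555 CPM in uninjured mutant and wild-type hearts. Of these 10, 5 rose in the mutant and 6 in wild type, among them the epicardial regulators TCF21 and wt1b and a periostin gene (POSTN, ENSDARG00000104267). That POSTN gene and ALDH1A2 held most of the counts of the list at 3 dpa. PDGFRA, DPT, mfap5 and the other POSTN gene (ENSDARG00000043806) passed in neither genotype. Their log2 ratios were 0.16, 0.62, 0.64 and 0.47 in the mutant and 0.24, 0.25, 0.50 and 0.51 in wild type. The 6 leukocyte marker IDs stood at 345 and 291 CPM in sum in mutant and wild type at 3 dpa, against 92.0 and 91.7 CPM in uninjured mutant and wild-type hearts. The part of either list in the collagen result was not tested.

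**Figure D2:**
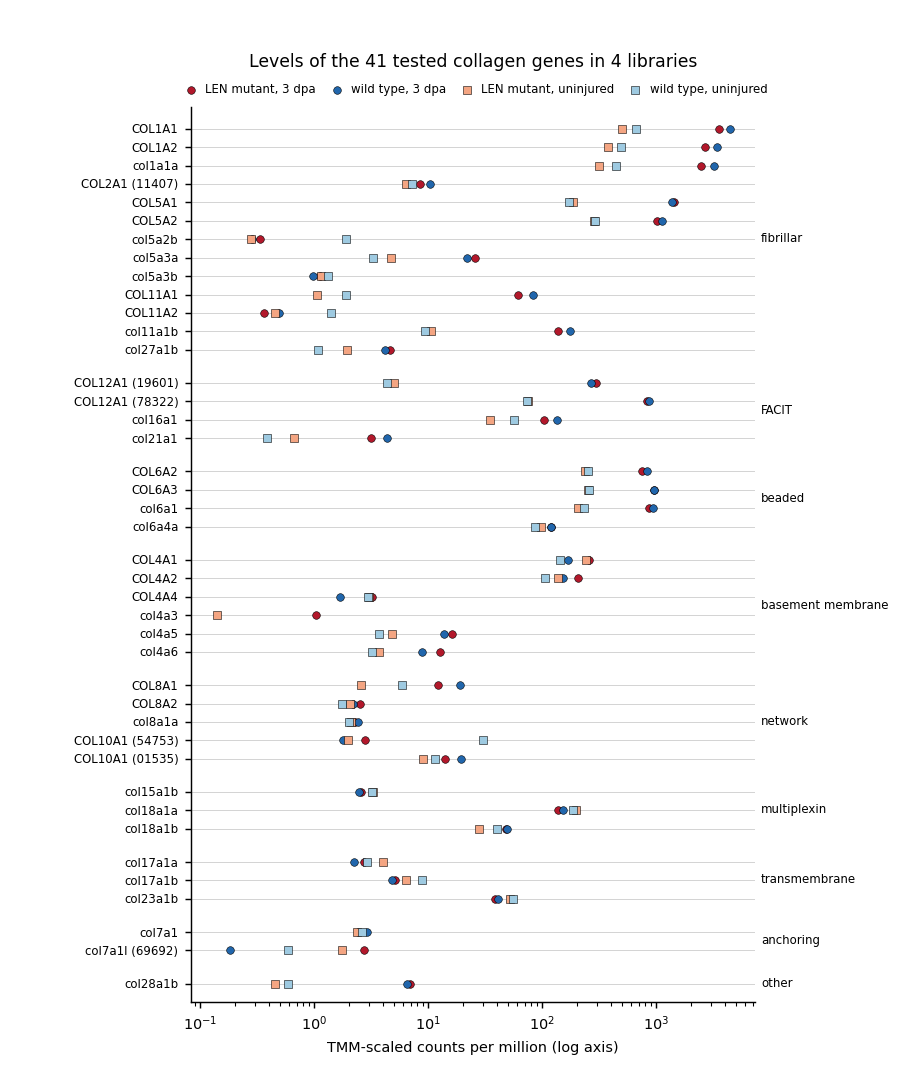
Points give the TMM-scaled CPM (log axis) of each of the 41 tested collagen genes in the 4 libraries, grouped by class, with circles for 3 dpa and squares for uninjured hearts; a library at 0 counts has no point. In the fibrillar, FACIT and beaded classes the 3 dpa circles of most genes lie to the right of the squares, while in the multiplexin and transmembrane classes most points of a gene lie close together.

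Type I collagen is the main fibril of scar and connective tissue, and zebrafish carry 2 genes for its alpha 1 chain and 1 for its alpha 2 chain. COL1A1 stood at 3559 CPM in mutant and 4391 CPM in wild-type hearts at 3 dpa, against 498 and 667 CPM in uninjured mutant and wild-type hearts. The other alpha 1 gene, col1a1a, stood at 2468 and 3203 CPM in mutant and wild type at 3 dpa, against 315 and 441 CPM in uninjured mutant and wild-type hearts. For COL1A2 these levels were 2693 and 3369 CPM at 3 dpa, against 375 and 494 CPM. All 3 genes were far above the uninjured level in both genotypes, and in each state the wild-type library was the higher. The log2 ratios at 3 dpa over uninjured ran from 2.84 to 2.97 in the mutant and from 2.72 to 2.86 in wild type. Reads that fit both alpha 1 genes could be counted for either, since the treatment of such reads is not given.

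Of the type V chains, which nucleate fibrils, COL5A1, COL5A2 and col5a3a rose in both genotypes, while col5a3b passed in neither and col5a2b fell in wild type. COL5A1 stood at 1422 CPM in mutant and 1372 CPM in wild type at 3 dpa, against 186 and 173 CPM in uninjured mutant and wild-type hearts. Its log2 ratio was 2.94 (95% counting interval, 2.90 to 2.98) in the mutant and 2.99 (2.95 to 3.03) in wild type. COL5A2, the partner chain, stood at 1003 and 1131 CPM in mutant and wild type at 3 dpa, against 282 and 288 CPM in uninjured mutant and wild-type hearts. The rise of COL5A2 was the smaller, with log2 ratios of 1.83 and 1.97. The third type V chain, col5a3a, had 25.6 and 21.7 CPM in mutant and wild type at 3 dpa, against 4.68 and 3.27 CPM in uninjured mutant and wild-type hearts.

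Of the type XI genes, COL11A1 and col11a1b rose in both genotypes. COL11A1, known from cartilage fibrils, had 2353 counts in mutant and 3184 counts in wild type at 3 dpa, against 30 and 55 counts in uninjured mutant and wild-type hearts. That is a 57.9-fold difference in the mutant and a 43.4-fold difference in wild type. Its paralogue col11a1b had 5377 and 6725 counts in mutant and wild type at 3 dpa, against 303 and 267 counts in uninjured mutant and wild-type hearts, or 13.1-fold and 18.9-fold. The cartilage collagen COL2A1 (ENSDARG00000011407) did not pass, with 8.44 and 10.3 CPM in mutant and wild type at 3 dpa, against 6.39 and 7.20 CPM in uninjured mutant and wild-type hearts. COL11A2, which with COL11A1 forms type XI collagen in cartilage, never exceeded 40 counts, did not pass in the mutant and fell in wild type. The long-chain fibrillar gene col27a1b rose as well, with 181 and 159 counts in mutant and wild type at 3 dpa, against 55 and 31 counts in uninjured mutant and wild-type hearts.

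Of the 12 FACIT genes only 4 reached the filter, and all 4 rose in both genotypes, against 10.9% of all tested genes. The 2 COL12A1 genes, whose product decorates type I fibrils, led them. COL12A1 (ENSDARG00000019601) had 11473 counts in mutant and 10248 counts in wild type at 3 dpa, against 144 and 124 counts in uninjured mutant and wild-type hearts. This 58.8-fold difference in the mutant and 62.0-fold difference in wild type was the largest among the 41 tested collagen genes in each genotype, in the mutant just above that of COL11A1. The other COL12A1 gene (ENSDARG00000078322) had 32220 and 33003 counts in mutant and wild type at 3 dpa, against 2135 and 2114 counts in uninjured mutant and wild-type hearts, an 11.1-fold and an 11.7-fold difference. Of the 2 genes, the one with fewer reads had the larger fold in each genotype. Type XVI collagen, col16a1, stood at 103 and 134 CPM in mutant and wild type at 3 dpa, against 35.1 and 56.3 CPM in uninjured mutant and wild-type hearts. Type XXI collagen, col21a1, had 122 and 165 counts in mutant and wild type at 3 dpa, against 19 and 11 counts in uninjured mutant and wild-type hearts. It reached the filter only at 3 dpa, the state where it was high. The remaining 8 FACIT genes, among them the 4 type IX genes, had at most 27 counts in any library, and col9a1b and col19a1 (ENSDARG00000096073) had 0 counts in all 4. A count of 0 allows a level of up to 0.0772 CPM in the mutant 3 dpa and 0.105 CPM in the mutant uninjured library.

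The 3 chains of the classical type VI microfibril rose together. At 3 dpa col6a1 stood at 858 CPM in mutant and 939 CPM in wild type, against 207 and 230 CPM in uninjured mutant and wild-type hearts. COL6A2 stood at 746 and 826 CPM in mutant and wild type at 3 dpa, against 237 and 253 CPM in uninjured mutant and wild-type hearts. COL6A3 stood at 959 and 948 CPM at 3 dpa, against 251 and 256 CPM. Their log2 ratios lay between 1.66 and 2.05 in the mutant and between 1.71 and 2.03 in wild type. The fourth measured chain, col6a4a, did not pass, with 119 and 118 CPM in mutant and wild type at 3 dpa, against 97.1 and 86.3 CPM in uninjured mutant and wild-type hearts. The last, col6a4b, had at most 4 counts.

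Basement membrane collagen behaved differently by chain pair. In RefSeq's gene list of the assembly GRCz12tu, col4a1 and col4a2, col4a3 and col4a4, and col4a5 and col4a6 are neighbours, each pair with 0 protein-coding genes between. COL4A1, the main alpha 1 chain, stood at 255 CPM in mutant and 167 CPM in wild type at 3 dpa, against 244 and 142.5 CPM in uninjured mutant and wild-type hearts. COL4A2 stood at 204 and 152 CPM in mutant and wild type at 3 dpa, against 138 and 105 CPM in uninjured mutant and wild-type hearts. Neither passed with injury, with log2 ratios of 0.06 and 0.56 in the mutant and 0.23 and 0.53 in wild type. The small ratio of COL4A1 in the mutant turned negative with upper-quartile scaling (-0.06). The pair col4a5 and col4a6 rose in both genotypes. At 3 dpa col4a5 had 632 counts in mutant and 525 counts in wild type, against 137 and 106 counts in uninjured mutant and wild-type hearts, and col4a6 had 490 and 335 counts at 3 dpa, against 106 and 93. The pair col4a3 and COL4A4, known in mammals from the kidney filter, stayed low. The gene col4a3 had 40 counts in mutant and 0 counts in wild type at 3 dpa, against 4 and 0 counts in uninjured mutant and wild-type hearts. COL4A4 had 124 and 64 counts in mutant and wild type at 3 dpa, against 86 and 85 counts in uninjured mutant and wild-type hearts. Of the 21 collagen genes that rose in the mutant, col4a3 (7.38-fold) was the one without a rise in wild type, where it had no reads, and with upper-quartile scaling it no longer reached the filter. The difference of its injury responses did not pass (2.45, 95% interval -0.67 to 5.58), but passed with a prior count of 10 (1.60). With 3 counts in place of 0, col4a3 was 13.2-fold higher in the mutant at 3 dpa than in wild type. The counting interval of that log2 ratio began at 3.35 and had no upper bound.

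**Figure D3:**
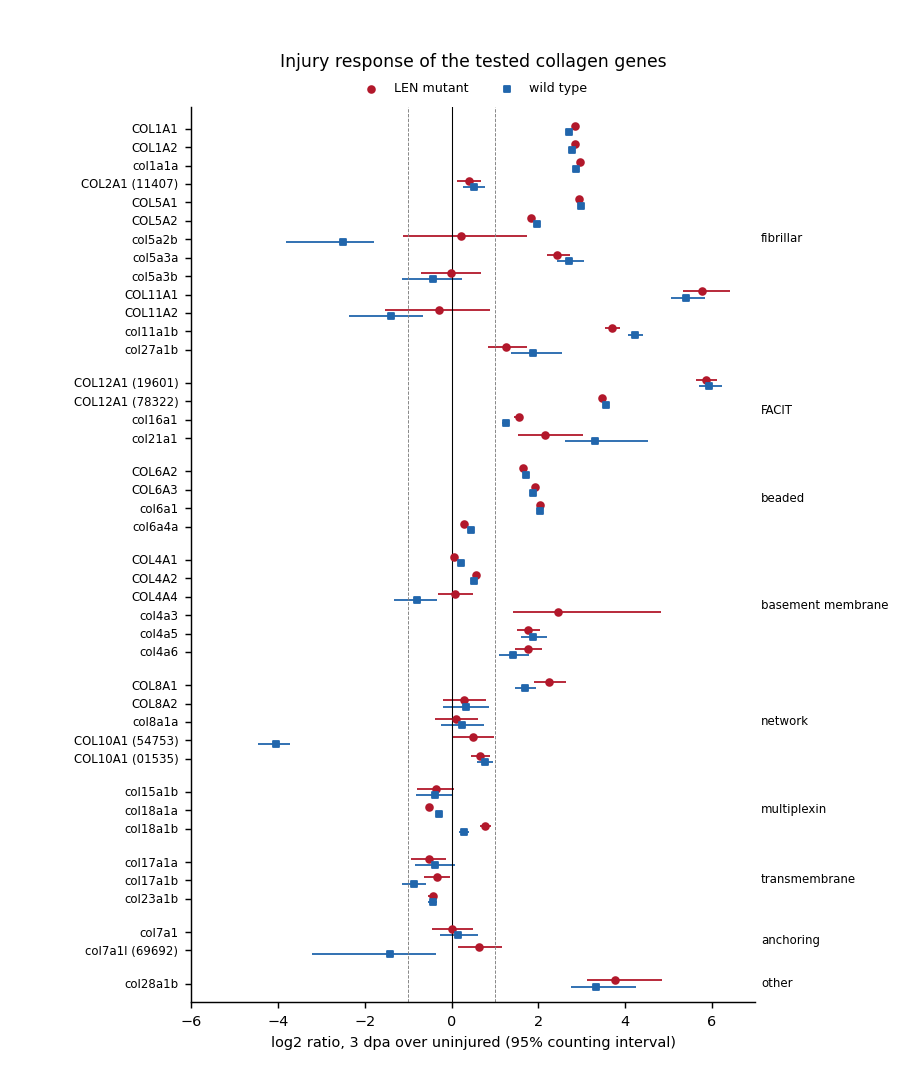
Points give the log2 ratio of 3 dpa over uninjured hearts for each of the 41 tested collagen genes, for the LEN mutant (circles) and wild type (squares), and lines give 95% counting intervals; dashed lines mark the threshold, and col4a3 has no wild-type point because both counts are 0. The 2 points of most genes lie close together, and the wild-type squares of COL10A1 (ENSDARG00000054753), col5a2b, COL11A2 and col7a1l lie to the left of the dashed line.

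Outside these 4 classes, 1 of the 5 tested network genes and the 1 tested type XXVIII gene rose in each genotype. Of the 3 multiplexin, 3 transmembrane and 2 anchoring genes tested, 0 rose. Over all tested genes 14.7% rose in the mutant and 13.2% in wild type. COL8A1, a short network-forming chain of vessel walls, had 477 counts in mutant and 732 counts in wild type at 3 dpa, against 73 and 169 counts in uninjured mutant and wild-type hearts, and rose in both genotypes. COL10A1 (ENSDARG00000101535) did not pass, with 14.1 and 19.5 CPM in mutant and wild type at 3 dpa, against 8.90 and 11.5 CPM in uninjured mutant and wild-type hearts, but passed in wild type with total-count scaling (1.03). The type XXVIII gene col28a1b rose, with 268 and 248 counts in mutant and wild type at 3 dpa, against 13 and 17 counts in uninjured mutant and wild-type hearts. It too reached the filter only at 3 dpa. Its relative col28a2b, below the filter, had 35 and 33 counts in mutant and wild type at 3 dpa and 0 counts in both uninjured libraries. With 3 counts in place of 0, it was 8.61-fold higher at 3 dpa in the mutant and 8.25-fold higher in wild type. The counting intervals of its log2 ratios began at 2.73 in the mutant and 2.67 in wild type and had no upper bound.

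The multiplexins and the transmembrane collagens held no gene that passed with injury in either genotype, except that col18a1b passed in the mutant when libraries were scaled by total counts, with or without liver and mitochondrial genes. The vascular basement membrane collagen col18a1a, whose end fragment is endostatin, stood at 138 and 152 CPM in mutant and wild type at 3 dpa, against 197 and 185 CPM in uninjured mutant and wild-type hearts. Its copy col18a1b stood at 47.8 and 48.8 CPM in mutant and wild type at 3 dpa, against 27.8 and 39.9 CPM in uninjured mutant and wild-type hearts. The ratios of the 2 copies had opposite signs, at -0.52 for col18a1a and 0.78 for col18a1b in the mutant and at -0.28 and 0.29 in wild type. Among membrane-spanning collagens, col23a1b stood at 38.1 and 41.2 CPM in mutant and wild type at 3 dpa, against 51.5 and 55.7 CPM in uninjured mutant and wild-type hearts. The hemidesmosome collagen col17a1b stood at 5.07 and 4.80 CPM in mutant and wild type at 3 dpa, against 6.42 and 8.76 CPM in uninjured mutant and wild-type hearts.

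Some collagen chains assemble with each other, and the ratios between chains, or between gene copies of a chain, were followed from library to library. They are ratios of counts without correction for length, and their size says nothing of molecules. COL1A2 counts over the sum of the 2 alpha 1 genes gave 0.447 in mutant and 0.444 in wild type at 3 dpa, against 0.462 and 0.446 in uninjured mutant and wild-type hearts. This ratio moved little beside the more than 6-fold changes of each of the 3 genes. The ratio of COL6A2 to col6a1 was 0.870 and 0.880 in mutant and wild type at 3 dpa, against 1.14 and 1.1 in uninjured mutant and wild-type hearts. COL5A1 over COL5A2 was 1.42 and 1.21 in mutant and wild type at 3 dpa, against 0.659 and 0.601 in uninjured mutant and wild-type hearts, and both exact 95% intervals at 3 dpa lay above those of the uninjured libraries. COL4A1 over COL4A2 was 1.25 and 1.098 at 3 dpa, against 1.76 and 1.35, and was the higher in the mutant in each state. The ratio of the less to the more abundantly counted COL12A1 gene was 0.356 and 0.311 at 3 dpa in mutant and wild type, against 0.0674 and 0.0587 in uninjured mutant and wild-type hearts. For col11a1b over COL11A1 it was 2.29 and 2.11 at 3 dpa, against 10.1 (exact 95% interval, 6.93 to 15.2) and 4.85 (3.62 to 6.61) in uninjured mutant and wild-type hearts, where COL11A1 had few reads.

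**Figure D4:**
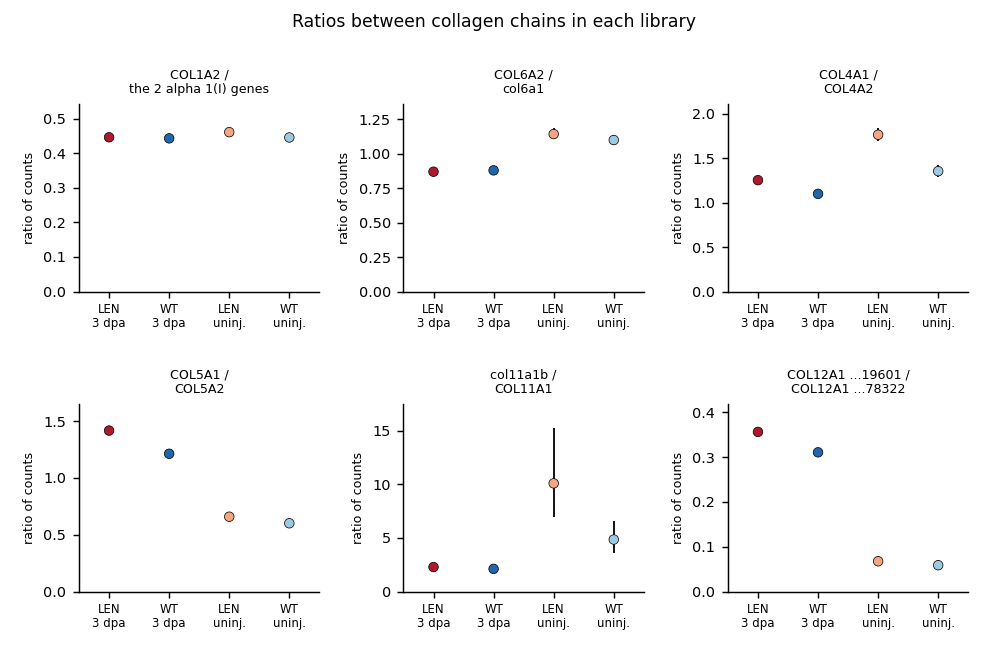
Each panel plots the ratio of the counts of 2 collagen chains (for COL1A2, of 1 chain to 2 genes) in the 4 libraries, with exact 95% intervals as bars; LEN is the mutant and WT wild type. COL1A2 over the alpha 1 genes stays between 0.444 and 0.462, while COL5A1 over COL5A2 is 1.42 and 1.21 at 3 dpa against 0.659 and 0.601 in uninjured hearts.

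The genotype comparison asked whether hearts without LEN carried other collagen levels. At 3 dpa 2 of the 41 tested collagen genes passed as higher in the mutant, col4a3 and col7a1l (ENSDARG00000069692), and 0 as lower. Of all tested genes 2.24% passed as higher and 0.769% as lower. In uninjured hearts col7a1l passed as higher, and col5a2b, COL11A2, COL8A1 and COL10A1 (ENSDARG00000054753) as lower, against 3.92% and 4.09% of all tested genes. Of these genes, col4a3, col7a1l, col5a2b and COL11A2 reached the filter only in libraries where they were high. Their calls were thus not independent of the filter. COL8A1, with the uninjured counts given above, had a genotype log2 ratio of -1.19 in uninjured hearts. The median genotype log2 ratio over the 57 genes was 0.01 at 3 dpa and -0.03 in uninjured hearts, where it was 0.01 with the 9 genes that had a library at 0 set at their bound, against 0.00 over all genes in both states.

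The genotype differences were also read without the threshold on size, and some chains had the same sign in both states. These include COL8A1 and col7a1l (ENSDARG00000069692), which passed the threshold above. Each state has 1 library per genotype. By counting intervals alone, 11 of the 41 tested collagen genes were higher and 16 lower in the mutant at 3 dpa, against 20.3% and 18.9% of all tested genes. In uninjured hearts these were 9 and 15 genes, against 25.2% and 26.5% of all tested genes. In both states 5 of the 41 were higher and 10 lower in the mutant, against 12.2% and 8.83% of all tested genes. The 5 higher ones were thus at about the share of all tested genes. Whether a counting interval excludes 0 depends on the number of reads, and these shares were not matched for it. With many reads a small ratio is enough, such as -0.09 for COL6A2 in uninjured hearts. Another 2 changed sign, COL10A1 (ENSDARG00000054753) and col18a1a, against 4.65%. The 10 lower ones were the 3 type I genes, COL11A1, col16a1, COL6A2, col6a1, COL8A1, COL10A1 (ENSDARG00000101535) and col23a1b. For the type I genes summed, the mutant held 79.5% of the wild-type level at 3 dpa and 74.1% in uninjured hearts. The 5 higher ones were COL4A1, COL4A2, COL5A1, col5a3a and col7a1l (ENSDARG00000069692). COL4A1 had a genotype log2 ratio of 0.61 (0.56 to 0.66) at 3 dpa and 0.77 (0.72 to 0.83) in uninjured hearts, and COL4A2 had 0.42 and 0.39. All 6 type IV genes had a counting interval above 0 at 3 dpa, but in uninjured hearts only 2 had, COL4A1 and COL4A2. These 2 genes held most type IV counts, with 9901 and 7914 of 19101 in the mutant at 3 dpa. In sum, type I and type IV counts lay on opposite sides. Type IV over type I was 0.0564 in mutant and 0.0313 in wild type at 3 dpa, against 0.332 and 0.161 in uninjured mutant and wild-type hearts. Without replicates, differences of this size cannot be told apart from variation between hearts. The markers of endothelium, a tissue known to make type IV collagen, stood at 1340 and 1136 CPM in sum in mutant and wild type at 3 dpa, against 1675 and 1593 CPM in uninjured mutant and wild-type hearts. Their genotype log2 ratios at 3 dpa were uneven, at 0.37 for vwf and TIE1, 0.29 for FLI1, 0.10 for cdh5, 0.04 for kdrl and -0.22 for EGFL7. In uninjured hearts they ran from -0.33 (EGFL7) to 0.38 (kdrl). The part of these markers was not tested.

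**Figure D5:**
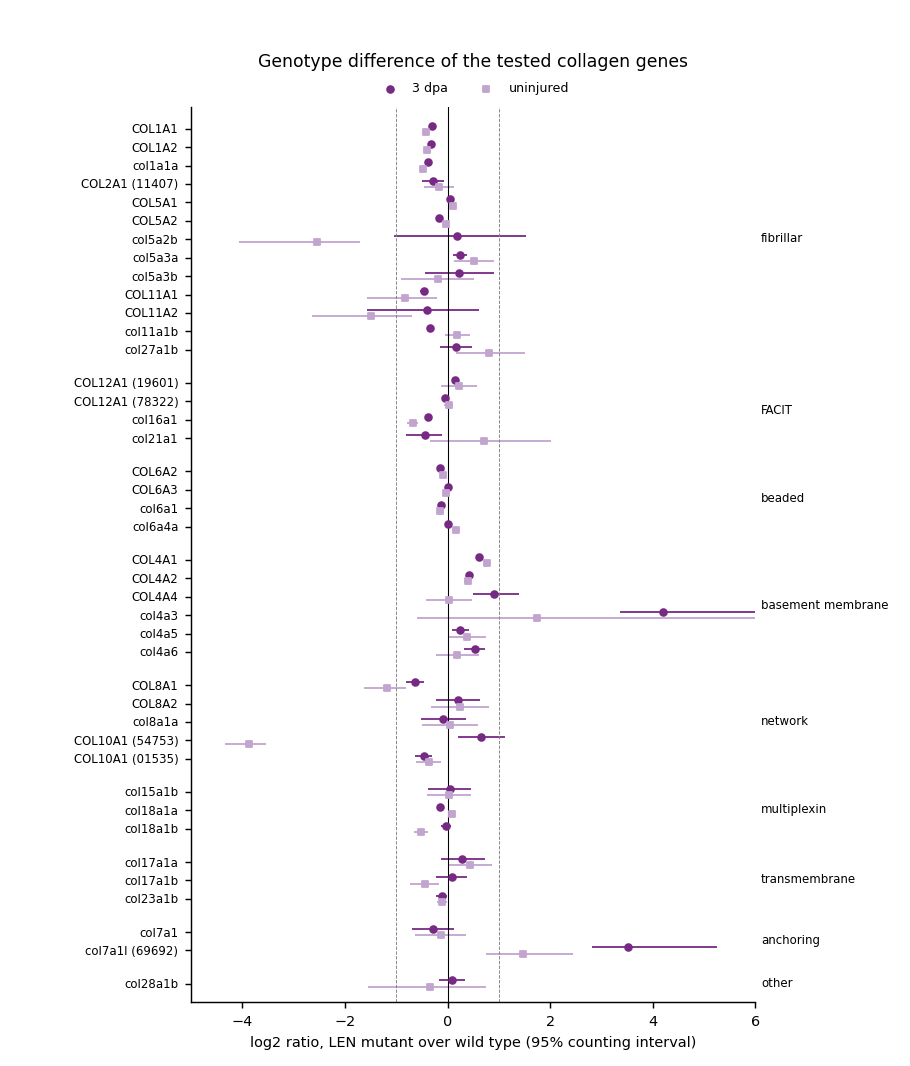
Points give the log2 ratio of LEN mutant over wild-type hearts for each of the 41 tested collagen genes, at 3 dpa (circles) and uninjured (squares), with 95% counting intervals as lines and dashed lines at the threshold; the intervals of col4a3 have no upper bound and run to the edge. The type I genes lie just left of 0 and COL4A1 and COL4A2 right of 0 in both states, and col4a3 and col7a1l at 3 dpa lie past the right dashed line.

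Type VII collagen anchors epithelium to the tissue below it, and 2 gene IDs carry the symbol of its relative col7a1l. The first (ENSDARG00000069692) had 106 counts in mutant and 7 counts in wild type at 3 dpa, against 50 and 17 counts in uninjured mutant and wild-type hearts. The mutant was 14.9-fold above wild type at 3 dpa and 2.95-fold above it in uninjured hearts. The second (ENSDARG00000093135), below the filter, had 14 and 3 counts in mutant and wild type at 3 dpa, against 6 and 0 counts in uninjured mutant and wild-type hearts. Both had more reads in the mutant in each state, but reads shared between IDs of the same symbol cannot be assigned with certainty. The gene col7a1 itself had 93 and 112 counts in mutant and wild type at 3 dpa, against 68 and 75 counts in uninjured mutant and wild-type hearts, and did not pass. The 6 epidermal markers had 2183 and 2272 CPM in sum in mutant and wild type at 3 dpa, against 560 and 773 CPM in uninjured mutant and wild-type hearts. Most of these reads were from krt4 and krt5. At 3 dpa krt4 was nearly equal, with 77862 and 77893 counts in mutant and wild type, and krt5 had 5775 and 8221. In uninjured hearts both had fewer counts in the mutant. The other 4 markers (evpla, PPL, TP63 and cyt1) had more counts in the mutant at 3 dpa. In uninjured hearts evpla and PPL had fewer in the mutant, TP63 had more, and cyt1 had 1 count in each library. The part of these markers was not tested.

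The difference of the 2 injury responses, mutant minus wild type, passed the same threshold for 4 collagen genes. It was positive for COL10A1 (ENSDARG00000054753), col5a2b and col7a1l (ENSDARG00000069692) and negative for col21a1. Of all tested genes 4.34% passed as higher and 1.48% as lower. Of the 4 collagen genes, col5a2b, col7a1l and col21a1 reached the filter only in libraries where they were high. COL10A1 (ENSDARG00000054753) had 109 counts in mutant and 68 counts in wild type at 3 dpa, against 57 and 865 counts in uninjured mutant and wild-type hearts. The fibrillar gene col5a2b had 13 and 11 counts in mutant and wild type at 3 dpa, against 8 and 55 counts in uninjured mutant and wild-type hearts. For both genes the wild-type uninjured library was high and the other 3 lay within 1 log2 unit of each other. For COL10A1 those still differed by counting interval, with a genotype log2 ratio at 3 dpa of 0.64 (0.21 to 1.12). The 2 genes were the collagens among the 130 genes that stood out in the wild-type uninjured library. For COL11A2 these counts were 14 and 19 at 3 dpa, against 13 and 40 in uninjured mutant and wild-type hearts. Beside them, the 9 IDs of the cartilage and bone list had 57.2 and 44.5 CPM in sum in mutant and wild type at 3 dpa, against 93.6 and 118 CPM in uninjured mutant and wild-type hearts. Most of these counts were from acana, with 1588 and 1047 counts at 3 dpa, against 2491 and 3089 in uninjured mutant and wild-type hearts. The gene cnmd was at 0 in all 4. The smooth muscle and bulbus list holds the elastin elnb of the outflow tract. It had 1060 and 1135 CPM at 3 dpa, against 1479 and 1994 CPM. Its members were uneven in uninjured hearts. Genotype log2 ratios there were -0.97 for elnb, -0.42 for TAGLN (ENSDARG00000045408), -0.37 for acta2 and -0.06 for MYH11 (ENSDARG00000100972). They were 0.39 for CNN1 (ENSDARG00000102398), 0.19 for TAGLN (ENSDARG00000033466) and 0.05 for MYH11 (ENSDARG00000009782). The hepatocyte markers in sum were highest in the wild-type uninjured library too, as given above. Of them, tfa had more counts at 3 dpa, with 16268 in mutant and 14879 in wild type, against 10356 in that library. The part of these lists in these values was not tested. Set against the mutant uninjured library in place of the wild-type one, the wild-type 3 dpa library had 21 collagen genes higher and 1 lower, in place of 20 and 4. These libraries differ in genotype as well as injury, and the share over all genes is not given. In that comparison the log2 ratio of COL10A1 (ENSDARG00000054753) was -0.16 (95% counting interval, -0.69 to 0.37), against -4.04 with the wild-type uninjured library. The gene lower there was col7a1l (ENSDARG00000069692), whose wild-type injury ratio did not pass with a prior count of 10 (-0.89). The difference of col21a1 was -1.16 (95% interval, -2.22 to -0.09), and with a prior count of 10 it no longer passed (-0.92).

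The genes that make, crosslink, sense and remove collagen were followed in lists chosen for their known function, with earlier results of these data known. Of the 31 tested genes for folding, modification and trimming of procollagen, 14 rose and 0 fell in the mutant, against 14.7% and 5.62% of all tested genes, and 13 rose and 2 fell in wild type, against 13.2% and 6.76%. Of the 2 that fell, pcolceb had 25 and 15 counts in mutant and wild type at 3 dpa, against 25 and 29 in uninjured mutant and wild-type hearts. P4HA3 had 12 and 7 counts at 3 dpa, against 8 and 48, so that the wild-type uninjured library alone was high. Both genes that fell reached the filter only in the wild-type uninjured library, so their calls were not independent of it. The chaperone gene FKBP10 (ENSDARG00000045129) had 1702 counts in mutant and 1885 counts in wild type at 3 dpa, against 214 and 261 counts in uninjured mutant and wild-type hearts. ADAMTS14, a procollagen peptidase, had 52 and 34 counts at 3 dpa, against 2 and 9. Its log2 ratio in the mutant, 3.44 (95% counting interval, 2.34 to 7.35), was the largest of the list. ADAMTS14 reached the filter only in the mutant 3 dpa library, where it was high. Of 8 tested lysyl oxidase genes, which crosslink fibrils, 6 rose and 0 fell in the mutant and 5 rose and 0 fell in wild type. LOXL2 (ENSDARG00000044074) had a log2 ratio of 2.33 in the mutant and 2.11 in wild type, and LOXL4 (ENSDARG00000025089) 1.87 and 1.20. The gene loxl5b rose in the mutant and also passed between the genotypes at 3 dpa, with 172 counts in mutant and 65 in wild type.

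Of 12 tested receptor genes 3 rose and 0 fell in each genotype. Of all tested genes 14.7% rose and 5.62% fell in the mutant, and 13.2% and 6.76% in wild type. Against the mutant uninjured library, 4 receptor genes were higher and 0 lower in wild type at 3 dpa. For comparisons against that library, which cross genotypes, no share of all genes is given. Those that rose in both genotypes were the integrin gene ITGA11 (ENSDARG00000036086), the discoidin receptor gene DDR2 (ENSDARG00000100693) and MRC2, which encodes an uptake receptor for collagen. MRC2 had 583 counts in mutant and 244 counts in wild type at 3 dpa, against 50 and 14 counts in uninjured mutant and wild-type hearts, and passed as higher in the mutant in both states. Of 11 tested genes for collagen breakdown and its inhibitors, 9 rose and 0 fell in the mutant, and 7 rose and 1, mmp13a, fell in wild type. This collagenase gene had 76 and 39 counts in mutant and wild type at 3 dpa, against 20 and 63 counts in uninjured mutant and wild-type hearts, and MMP9 had 1304 and 1101 counts at 3 dpa, against 222 and 503. Set against the mutant uninjured library, wild type at 3 dpa had 8 genes of the list higher, MMP9 among them, and 1 lower. The lower gene was MMP15 (ENSDARG00000013072), with a log2 ratio of -1.27, and not mmp13a. This MMP15 gene had 328 and 124 counts in mutant and wild type at 3 dpa, against 226 and 65 in uninjured hearts. Within wild type it did not fall, with an injury log2 ratio of 0.51 (counting interval, 0.07 to 0.97). It passed as higher in the mutant in both states, with genotype log2 ratios of 1.37 at 3 dpa and 1.78 in uninjured hearts. In mutant and wild type, the collagenase gene mmp13b had 89 and 171 counts at 3 dpa, against 4 and 5 in uninjured hearts. It reached the filter only at 3 dpa, where it was high. The inhibitor gene TIMP2 (ENSDARG00000075261) had 8257 and 7423 counts in mutant and wild type at 3 dpa, against 519 and 448. Of 16 tested genes for collagen-binding and neighbouring matrix proteins, 11 rose and 1 fell in the mutant, and 10 rose and 0 fell in wild type. The fibronectin gene FN1 (ENSDARG00000019815) had log2 ratios of 5.20 and 4.63 in mutant and wild type, POSTN (ENSDARG00000104267), which is also an epicardial marker above, had 3.03 and 3.06, and sparcl1 fell in the mutant (-1.06). The median log2 ratios of the tested members of these 5 lists ran from 0.48 to 1.74 in the mutant and from 0.64 to 1.35 in wild type, against 0.04 and 0.03 over all tested genes.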

How the data were processed

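For each of the 4 libraries the authors deposited raw counts, 1 whole number per Ensembl gene ID, without normalization. HISAT2, featureCounts and the build GRCz11 are named per the submitters' processing notes, and per the file headers all libraries ran on lane 8. The annotation release, strand setting and treatment of multi-mapping reads are not given in the sources used here, so counts of paralogues and overlapping genes are uncertain. A gene name table gave symbols for 29201 of 32520 IDs, and 44 of the 57 collagen IDs carry 1 of the 60 collagen symbols of RefSeq's list (GRCz12tu).

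TMM factors (edgeR 4.0.16, R 4.3.3) ran from 0.898 to 1.12. Ratios used edgeR's log2 CPM formula with a prior count of 2, exact conditional binomial 95% intervals (Clopper-Pearson), and for the difference of injury responses a delta-method interval. Intervals and floors (3 counts) cover counting error only, since each group has 1 library. No molecular identifiers mark the reads, so repeated reads of 1 molecule cannot be told apart and the intervals may be too narrow. With 1 library per group there are no residual degrees of freedom, so no model was fitted and no p-value is given. Python 3.11.15, numpy 2.4.6, pandas 2.3.3 and scipy 1.17.1 did the rest.

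Fibrillar, basement membrane, FACIT and beaded genes with at least 10 CPM in a library were named, with the 2 most abundant genes of the other classes and any gene past the threshold between genotypes or for the difference. In the companion lists the 2 largest rises and falls in the mutant were named. Other genes were named after their values were seen. The members, lists and thresholds were chosen with earlier results of these data known. Levels per coding length and sequence features were not computed. Alternatives were DESeq2 1.42.0 size factors, upper-quartile factors, total counts with and without liver and mitochondrial genes, no filter, and prior counts of 0.5 and 10.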

Additional observations from a re-analysis of the deposited data

Results flagged for a closer look

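In 2 collagen genes the mutant had more and the wild type fewer reads at 3 dpa than in uninjured hearts, with counting intervals that excluded 0 in both. With 1 library per group the difference between genotypes was not tested. The share of all tested genes with such opposite injury changes is not given. COL10A1 (ENSDARG00000054753) had an injury log2 ratio of 0.48 in the mutant and -4.04 in wild type, a difference of 4.52, and it had 57 counts in the mutant and 865 in the wild-type uninjured library. Set against the mutant uninjured library instead, its wild-type ratio was -0.16 (95% interval, -0.69 to 0.37). The gene col7a1l (ENSDARG00000069692) had 0.63 in the mutant and -1.43 in wild type, a difference of 2.05 (95% interval, 0.82 to 3.29). It reached the filter only in the mutant libraries. The wild-type 3 dpa library set against the mutant uninjured library gave -2.90 for col7a1l. Such a comparison differs in genotype as well as injury. In uninjured hearts col7a1l was already higher in the mutant, with a genotype log2 ratio of 1.47.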

How the results depend on the processing

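No paired analysis was possible because each group has 1 library. The counts of collagen genes that rose in the injury comparisons ranged from 20 to 24 in the mutant and from 20 to 22 in wild type over the 7 alternatives. Levels per coding length and alternatives on protein features were not run. Total-count scaling moved the median injury ratio of all tested genes to 0.36 in the mutant and 0.30 in wild type, against 0.04 and 0.03, and left 349 and 624 genes lower at 3 dpa, against 927 and 1116; without liver and mitochondrial genes 468 were lower in the mutant. The share of higher genes among all calls was then 91.0% in the mutant and 83.3% in wild type, against 72.3% and 66.2%; it was 87.6% and 79.0% with liver and mitochondrial genes left out, and 61.4% and 56.9% with upper-quartile factors. With upper-quartile factors 1 collagen gene in place of 2 was higher in the mutant at 3 dpa, as col4a3 missed the filter. Without the filter 2 in place of 1 were higher in the mutant in uninjured hearts, and at 3 dpa 650 and 318 of all genes were higher and lower, against 369 and 127. With a prior count of 10, 79 genes were lower at 3 dpa and col21a1 left the difference of injury responses, with 0 collagen genes lower. Set against the mutant uninjured library, an alternative chosen after seeing the data, wild type at 3 dpa had 1 collagen gene lower in place of 4, the ratios of col5a2b, COL11A2 and COL10A1 (ENSDARG00000054753) became 0.033, 0.11 and -0.16, against -2.51, -1.39 and -4.04, and COL10A1 (ENSDARG00000101535) passed (1.13). That comparison differs in genotype as well as injury. Genes under 35 counts are limited by depth.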
